A study of Mus musculus with 4 samples.

Results

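Glutathione is the main small thiol of animal cells, a peptide built from glutamate, cysteine and glycine. Cells obtain cysteine by importing cystine or by transsulfuration from methionine, build glutathione with glutamate-cysteine ligase and glutathione synthetase, recycle its oxidised form with a reductase, spend it on peroxides, and break it down inside or outside the cell. In mouse T cells, Gclc is known to be needed for growth after activation and Gpx4 for survival of the expanding cells. The 10 genes described here cover these steps: Slc7a11 (cystine import), Cbs and Cth (transsulfuration), Gclc, Gclm and Gss (synthesis), Gsr (recycling), Gpx4 (use), and Chac1 and Ggt1 (breakdown). They were given as a list of symbols and found by their Ensembl identifiers among 50686 identifiers, and all 10 were present and passed the filter on low counts.

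The study compared mouse cells labelled Yap KO with WT cells, in a stimulated and an unstimulated state, by bulk RNA-seq of RNA taken from cell culture. The groups were Yap KO stimulated, WT stimulated, Yap KO unstimulated and WT unstimulated cells, with 1 library each and 19935523, 20976343, 25419974 and 22088392 reads in genes, in that order. All came from spleen and lymph node, and the titles of the stimulated libraries carry the number 24 without a unit. The deleted allele, any Cre driver, the stimulus, the cell type, and the age and number of animals are not stated in the labels, so genotype cannot be told apart from cell source, nor stimulation from time in culture.

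Yap1, the gene of the genotype label, had 2 reads in Yap KO stimulated, 3 in WT stimulated, 0 in Yap KO unstimulated and 1 in WT unstimulated cells, too few to check the label. The labels name no cell type. The 6 T cell markers (Cd3d, Cd3e, Cd3g, Trac, Cd5 and Lck) summed to 1560, 1641, 4234 and 3933 CPM (TMM-scaled CPM, reads of a gene set against all reads in genes) in the same order, and Cd8a with Cd8b1 to 521, 605, 2297 and 2152 CPM, while Cd4 had at most 3 reads. Markers of B, plasma, NK, myeloid, dendritic, erythroid, platelet and stromal cells were lower in the stimulated libraries. Of 38 such markers 21 were tested, 16 fell and 0 rose, beside 32.5% and 32.1% of all genes tested. Of their 9 list sums, that of monocytes and macrophages was the highest in stimulated cells. It was 23.6 and 18.03 CPM in stimulated Yap KO and WT cells, against 31.1 and 25.6 CPM in unstimulated ones. The stromal and endothelial sum was the highest in unstimulated cells, at 136 and 158 CPM in Yap KO and WT cells. It was mainly from Pecam1, which T cells also express, and stood at 10.7 and 11.8 CPM in stimulated Yap KO and WT cells. Pf4 and Cdh5 had 0 reads everywhere, and 10 further markers had 0 reads in both stimulated libraries. These markers moved with stimulation beside every change described next, and their part in those changes was not tested. In bulk RNA, fewer cells of a type and less RNA per cell cannot be told apart.

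The first comparison set stimulated against unstimulated cells in both genotypes. Cth and Chac1 were nearly or wholly undetected in unstimulated cells and reached 26.6 to 107 CPM in stimulated cells. Ggt1 did the opposite, and the genes of synthesis, recycling and peroxide use moved by at most 2.51-fold. In the additive edgeR fit over all 4 libraries, with genotype as the other term, 8 of the 10 genes rose and 2 fell at an adjusted p under 0.05. Of all 15394 genes tested, 64.6% were called, 32.1% rising and 32.5% falling, so a call by itself is common in this comparison. Ratios of 2-fold or more upward in both genotypes were found for 6 of the 10 genes (Slc7a11, Cbs, Cth, Gss, Gpx4 and Chac1), beside 19.4% of all genes. Slc7a11, Cbs, Cth and Chac1 passed the filter only through the stimulated libraries, which makes a difference between states a condition of their being tested. The p-values rest mostly on a variance estimated over all genes, with 8.45 prior degrees of freedom. Each gene adds 1 residual degree of freedom, from how alike its change was in the 2 genotypes. They do not rest on replicate cultures.

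**Figure D1:**
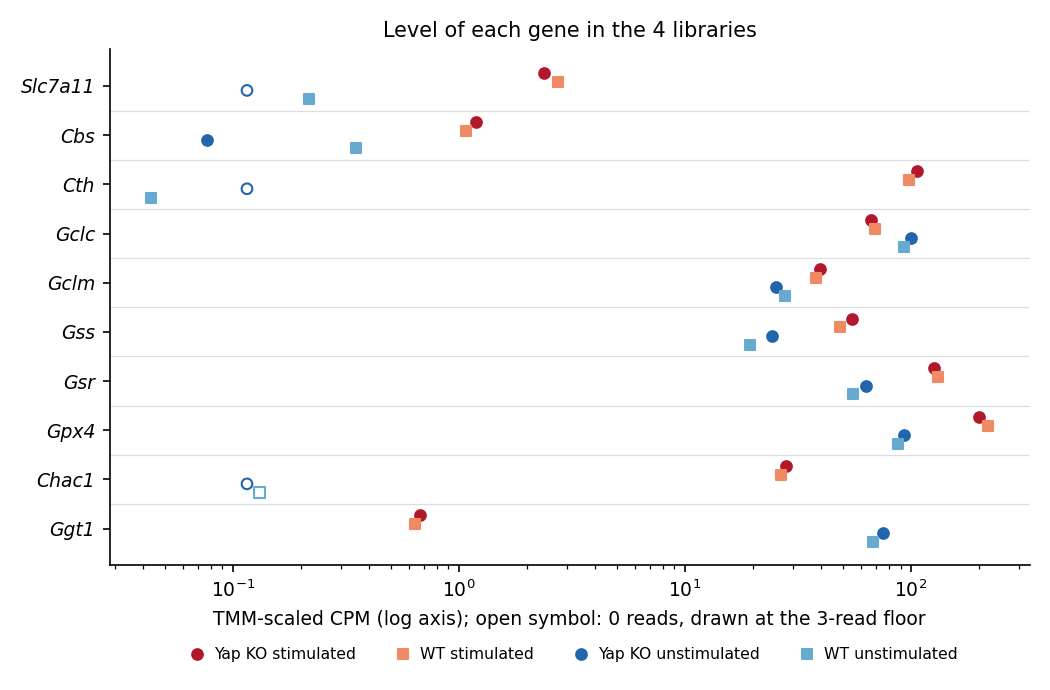
Level of the 10 genes in each library, in TMM-scaled CPM on a log axis, with 1 point per library and no replicates; open symbols stand for 0 reads and are drawn at the floor of 3 reads. Chac1 and Cth lie far to the right in stimulated cells and Ggt1 far to the right in unstimulated cells, while the points of Yap KO and WT in the same state lie close together wherever a gene has more than a few reads.

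In stimulated cells, cysteine supply divided into a strongly expressed and a barely expressed set of genes. Slc7a11, on chromosome 3 from 49892526 to 50443614, encodes xCT, the light chain of the cystine-glutamate antiporter. It had 46 reads (2.38 CPM) in Yap KO stimulated and 56 reads (2.74 CPM) in WT stimulated cells, against 0 reads in Yap KO unstimulated and 5 reads (0.218 CPM) in WT unstimulated cells. Both stimulated libraries lay above both unstimulated ones, at a low level throughout. The ratio was at least 16.1-fold in Yap KO cells by the lower 95% counting limit. In WT cells it was 12.6-fold (95% counting interval 5.08 to 40.2). The fit gave a log2 fold change of 4.66 ± 0.87 (SE, edgeR quasi-likelihood adjusted p = 0.00101). With the state term only, it was 3.51 without the Yap KO unstimulated library and 8.81 without the WT unstimulated library, and it was called in both fits (adjusted p = 0.00984 and 0.00229).

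Slc3a2, the heavy chain that carries xCT and other light chains to the surface, was far more abundant. It stood at 453 and 516 CPM in stimulated Yap KO and WT cells, against 156 and 152 CPM in unstimulated ones, and rose by 1.65 ± 0.13 (adjusted p = 3.10e-06). Per kilobase of annotated exon, Slc3a2 exceeded Slc7a11 749-fold in Yap KO stimulated and 742-fold in WT stimulated cells, although the annotated exons of Slc7a11, 13922 bases over all isoforms, are long and lower its value. Slc1a4, a transporter of neutral amino acids including cysteine, rose by 5.27 ± 0.23 (adjusted p = 8.39e-08), with 44.0 and 60.3 CPM in stimulated Yap KO and WT cells against 1.43 and 1.22 CPM in unstimulated ones. Of the 6 other transporter genes listed, 4 were tested, 3 rose and 0 fell, beside 32.1% and 32.5% of all genes.

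Cbs condenses homocysteine with serine into cystathionine, and Cth cleaves cystathionine to release cysteine. Cth, on chromosome 3 from 157894248 to 157925077, had 2058 reads (107 CPM) in Yap KO stimulated and 1995 reads (97.8 CPM) in WT stimulated cells, against 0 and 1 reads in unstimulated Yap KO and WT cells. The rise was at least 923-fold in Yap KO cells, and the ratio was 2238-fold in WT cells, with a counting interval from 401 to 88439 because it rests on 1 read. Cbs had 23 reads (1.19 CPM) in Yap KO stimulated and 22 reads (1.08 CPM) in WT stimulated cells, against 2 and 8 reads in unstimulated Yap KO and WT cells. Its call (2.51 ± 0.83, adjusted p = 0.0233) was lost with DESeq2, where the log2 fold change was 2.71 with an adjusted p of 0.105. The call was also lost when the Yap KO stimulated, the WT stimulated or the Yap KO unstimulated library was left out, with adjusted p-values of 0.144, 0.118 and 0.156 from edgeR with the state term only. Its log2 fold change was 1.68 without the Yap KO unstimulated library and 3.77 without the WT unstimulated library.

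The 2 transsulfuration genes thus stood far apart in level in stimulated cells. Per kilobase of exon, Cth exceeded Cbs 240-fold in Yap KO stimulated and 243-fold in WT stimulated cells. The same ratio was 0 in Yap KO unstimulated and 0.335 in WT unstimulated cells, from few reads of either gene. Upstream, in the methionine cycle that supplies homocysteine, 7 of 11 listed genes were tested, 4 rose and 1 fell. Ahcy, which releases homocysteine from S-adenosylhomocysteine, rose by 2.02 ± 0.13 (adjusted p = 8.31e-07), and Mtrr, which reactivates methionine synthase, by 1.03 ± 0.13. Downstream of cysteine, 11 of 11 genes of catabolism and sulfide handling were tested, 3 rose and 3 fell. Beside both lists, 32.1% of all genes rose and 32.5% fell. Got1 and Got2, transaminases that also act on cysteine sulfinate and otherwise serve aspartate metabolism, rose by 2.51 ± 0.13 and 1.53 ± 0.13, with 434 exon bases of Got2 lying opposite another gene.

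**Figure D2:**
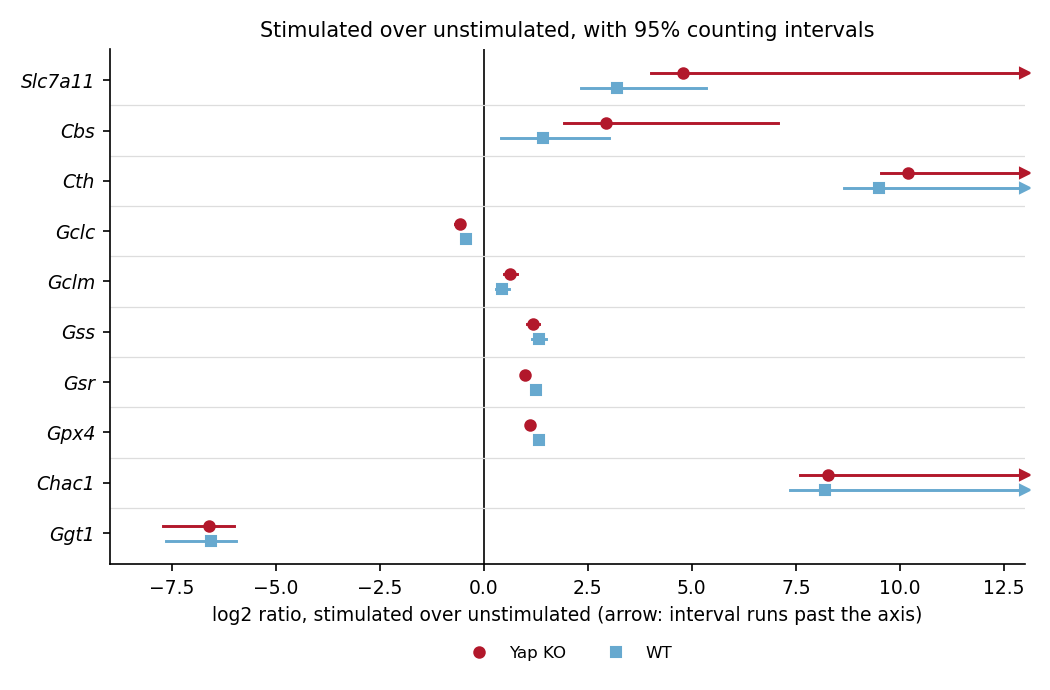
Log2 ratio of stimulated over unstimulated cells for each gene, Yap KO above WT, with exact 95% counting intervals and a prior count of 2 in the plotted ratio; arrows mark intervals that run past the axis because an unstimulated library had 0 or 1 reads. Both genotypes lie on the same side of 0 for every gene, from -6.62 and -6.55 for Ggt1 to 10.21 and 9.51 for Cth in Yap KO and WT cells.

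Glutamate-cysteine ligase consists of a catalytic subunit, Gclc, and a modifier subunit, Gclm, which lowers its need for glutamate and its inhibition by glutathione. The genes of its 2 subunits moved in opposite directions in TMM-scaled CPM, a relative measure. RNA per cell was not measured. Gclc, on chromosome 9 from 77754535 to 77794485, had 1279 reads (66.3 CPM) in Yap KO stimulated and 1409 reads (69.0 CPM) in WT stimulated cells, against 2586 reads (99.6 CPM) in Yap KO unstimulated and 2136 reads (93.3 CPM) in WT unstimulated cells. The stimulated libraries did not overlap the unstimulated ones. The log2 ratio was -0.59 (95% counting interval -0.69 to -0.49) in Yap KO and -0.43 (-0.53 to -0.34) in WT cells (fitted log2 fold change -0.51 ± 0.13, adjusted p = 0.00575), and the call held in every alternative fit, leaving out single libraries included (highest adjusted p 0.0479).

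Gclm, on chromosome 3 from 122245557 to 122270732, had 763 reads (39.6 CPM) and 775 reads (38.0 CPM) in stimulated Yap KO and WT cells, against 660 reads (25.4 CPM) and 638 reads (27.9 CPM) in unstimulated Yap KO and WT cells. It rose by 0.54 ± 0.15 (adjusted p = 0.0107). The call was lost when the Yap KO stimulated, the Yap KO unstimulated or the WT unstimulated library was left out, with adjusted p-values of 0.0701, 0.0941 and 0.0525 from edgeR with the state term only. Of its 6291 exon bases, 296 lie opposite the exons of Gm17494 and 244 are shared with Gm6061, and the labels do not state the strand setting of the counting. Per kilobase of exon, Gclc exceeded Gclm 2.80-fold and 3.04-fold in stimulated Yap KO and WT cells, against 6.55-fold and 5.59-fold in unstimulated Yap KO and WT cells.

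Gss, which adds glycine to complete glutathione, lies on chromosome 2 from 155563181 to 155592810. It had 54.9 and 48.8 CPM in stimulated Yap KO and WT cells, against 24.4 and 19.4 CPM in unstimulated Yap KO and WT cells, with no overlap between states. It rose by 1.25 ± 0.15 (adjusted p = 5.27e-05). Of its 5915 exon bases, 913 lie opposite exons of Acss2, Gssos1 and Gssos2.

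Gsr, the reductase that restores oxidised glutathione with NADPH, had 127 and 132 CPM in stimulated Yap KO and WT cells, against 63.4 and 55.3 CPM in unstimulated Yap KO and WT cells. It rose by 1.13 ± 0.13 (adjusted p = 4.64e-05). Gpx4, the selenoenzyme that reduces lipid peroxides in membranes and so protects from ferroptosis, was the most abundant of the 10 genes per kilobase in all 4 libraries. It had 201 and 219 CPM in stimulated Yap KO and WT cells, against 92.8 and 87.5 CPM in unstimulated Yap KO and WT cells, and rose by 1.22 ± 0.13 (adjusted p = 2.12e-05). Of its transcripts' 31-mers, 38.9% also occur in another gene, most often Gpx4-ps2, and the deposited tables set reads without a unique alignment apart, so its level may be understated. The 5 genes Gclc, Gclm, Gss, Gsr and Gpx4 lay above 10 reads in every library, and their changes do not depend on a library near 0.

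Of the enzymes that break glutathione down, Chac1 acts in the cytosol and Ggt1 on the outer cell surface. Chac1, on chromosome 2 from 119351229 to 119354381, had 538 reads (27.9 CPM) in Yap KO stimulated and 543 reads (26.6 CPM) in WT stimulated cells. Neither unstimulated library held a read, with upper 95% counting limits of 0.142 CPM in Yap KO and 0.161 CPM in WT cells. The additive fit called it (adjusted p = 1.84e-07), and its fitted fold change depends on the prior count, so only the bound on the fold is informative. By the lower 95% counting limit, Chac1 was at least 196-fold higher in Yap KO and at least 165-fold higher in WT cells. With a prior count of 2, Chac1 and Cth both had log2 ratios of 8 or higher in the 2 genotypes. Of all tested genes, 0.0650% did. The cutoff of 8 lies just under the values of Chac1, 8.27 and 8.21 in Yap KO and WT cells. Both genes passed the filter only through the stimulated libraries, so this share is a description and no test.

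Ggt1, on chromosome 10 from 75561604 to 75586200, had 13 reads in each stimulated library (0.674 CPM in Yap KO and 0.637 CPM in WT cells), against 1944 reads (74.9 CPM) in Yap KO unstimulated and 1561 reads (68.2 CPM) in WT unstimulated cells. The 2 states were separated by a wide gap in both genotypes. It was 111-fold lower in Yap KO and 107-fold lower in WT cells, with counting intervals of the stimulated over unstimulated ratio from 0.00478 to 0.0154 and from 0.00496 to 0.0160 (log2 fold change -6.76 ± 0.22, adjusted p = 1.98e-08). Log2 ratios below 0 in both genotypes, as Ggt1 and Gclc had, were found for 45.4% of tested genes. Log2 ratios of -6 or lower in both genotypes were found for 0.110%. The cutoff of -6 lies close to the values of Ggt1, -6.62 and -6.55 in Yap KO and WT cells, so this share is no test.

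Related breakdown genes, of which Ggt5, Ggt7, Chac2 and Anpep are named here after their values were seen, moved in either direction. Of the 12 listed, 8 were tested, 2 rose and 3 fell, beside 32.1% and 32.5% of all genes. Lap3, a leucine aminopeptidase that also cleaves the dipeptide Cys-Gly, rose by 2.43 ± 0.13 (adjusted p = 3.00e-07), and Ggct, which releases 5-oxoproline from gamma-glutamyl amino acids, fell by 0.84 on the log2 scale (SE 0.17, adjusted p = 0.00202). Ggt5, a paralog next to Ggt1 on chromosome 10, fell to 11 and 14 reads in stimulated Yap KO and WT cells, against 200 and 365 reads in unstimulated Yap KO and WT cells. Ggt7, another paralog, had 95 and 132 reads in stimulated Yap KO and WT cells, against 213 and 187 reads in unstimulated ones, and missed the threshold (adjusted p = 0.0924). Anpep, a surface aminopeptidase that cleaves Cys-Gly and is also a myeloid marker, had 0 reads in both stimulated libraries and 43 and 24 reads in unstimulated Yap KO and WT cells. Chac2, the constitutive relative of Chac1, rose by 1.23 ± 0.28 (adjusted p = 0.00337). Per kilobase, Chac1 stood 2.92-fold and 2.68-fold above Chac2 in stimulated Yap KO and WT cells.

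The order of the 10 genes by level per kilobase of exon changed with the state. In both stimulated libraries it ran Gpx4, Gsr, Cth, Gclc, Chac1, Gss and Gclm, with 116 and 127 CPM per kilobase for Gpx4 and 6.29 and 6.04 for Gclm in Yap KO and WT cells. Below these, Ggt1, Slc7a11 and Cbs lay between 0.144 and 0.198 CPM per kilobase. In both unstimulated libraries the order began Gpx4, Gclc, Gsr and Ggt1. Among neighbours, the counting intervals of Gclc and Chac1 overlapped in both stimulated libraries, as did those of Ggt1, Slc7a11 and Cbs. Gsr and Ggt1 overlapped in both unstimulated libraries, and Gss and Gclm in Yap KO unstimulated cells.

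Promoter sequence was looked at because Chac1 and Slc7a11 are known ATF4 targets, and Gclm is a known NRF2 target in mouse. RefSeq windows on GRCm38.p6, from 250 bases before to 50 after an annotated start, were matched for 7 of the 10 genes (13 windows). They were searched on both strands for TGATGNAA, the composite element of ATF4 with C/EBP factors, and TGACNNNGC, the core of the antioxidant response element. No window of the 10 genes held both motifs. Of 27025 genes with a window, 4.51% held the ATF4 element and 13.99% the antioxidant core. Slc7a11 held the ATF4 element 2 times, beginning at -66 and -47 relative to the start site, and Chac1 held it 1 time, at -193. Gclm held the antioxidant core at -134, and 3 of the 4 windows of Ggt1 held it too. The windows of Cbs, Gss and Gpx4 held neither, which says only that these letters are not there. A match is a description of sequence, and the start sites used by these cells were not measured. The windows of the 3 genes just named as known targets follow, with the matched bases in capitals.
Slc7a11 (chr3:50443564-50443863, minus strand): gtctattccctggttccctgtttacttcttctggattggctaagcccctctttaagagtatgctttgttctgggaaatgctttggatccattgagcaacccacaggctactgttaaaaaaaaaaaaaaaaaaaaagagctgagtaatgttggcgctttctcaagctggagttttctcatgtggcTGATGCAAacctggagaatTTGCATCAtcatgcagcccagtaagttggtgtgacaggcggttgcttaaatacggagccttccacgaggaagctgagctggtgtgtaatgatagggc
Chac1 (chr2:119350992-119351291, plus strand): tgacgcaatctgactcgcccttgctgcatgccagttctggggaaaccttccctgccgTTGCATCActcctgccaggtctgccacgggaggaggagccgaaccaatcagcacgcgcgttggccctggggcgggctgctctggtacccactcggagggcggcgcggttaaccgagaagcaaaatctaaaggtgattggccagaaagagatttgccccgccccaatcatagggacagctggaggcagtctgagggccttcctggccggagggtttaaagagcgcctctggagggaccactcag
Gclm (chr3:122245307-122245606, plus strand): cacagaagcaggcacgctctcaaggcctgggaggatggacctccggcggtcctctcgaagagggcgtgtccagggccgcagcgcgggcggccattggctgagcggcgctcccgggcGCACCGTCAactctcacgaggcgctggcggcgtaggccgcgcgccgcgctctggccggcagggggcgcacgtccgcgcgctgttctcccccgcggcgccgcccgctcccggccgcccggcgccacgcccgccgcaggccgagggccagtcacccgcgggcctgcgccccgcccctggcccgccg

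In the RNA, the regulators behind these elements did not move alike. Atf4 rose to 447 and 403 CPM in stimulated Yap KO and WT cells, against 141 and 152 CPM in unstimulated Yap KO and WT cells (1.54 ± 0.13, adjusted p = 5.44e-06). Nfe2l2, which encodes NRF2 and is named here after its values were seen, fell to 49.6 and 56.5 CPM in stimulated Yap KO and WT cells, against 74.5 and 68.7 CPM in unstimulated ones (-0.43 ± 0.14, adjusted p = 0.0205). Mafg, a small MAF partner of NRF2, rose by 1.88 ± 0.16 (adjusted p = 4.07e-06). Of 12 listed regulators and standard NRF2 targets 11 were tested, 6 rose and 2 fell, beside 32.1% and 32.5% of all genes.

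Systems that work beside glutathione mostly rose, while 32.1% of all genes rose and 32.5% fell. Of 13 thioredoxin genes 11 rose and 1 fell, with Prdx4, the peroxiredoxin of the endoplasmic reticulum, at 4.03 ± 0.23 and Txnip, the thioredoxin inhibitor, at -3.03 ± 0.13 (adjusted p = 7.63e-08), with 606 exon bases of Txnip lying opposite another gene. Of 12 tested genes of NADPH supply 9 rose and 1 fell, with Mthfd2 and Mthfd1, of folate metabolism, at 3.89 ± 0.14 and 1.90 ± 0.13. Of 8 glutaredoxin and glyoxalase genes 6 rose and 1 fell, with Glrx3, an iron-sulfur glutaredoxin, at 1.52 ± 0.13 and Glrx at -2.62 ± 0.23. The log2 stimulation ratios of these 3 lists had medians of 1.18, 0.98 and 0.74 in Yap KO and 1.36, 1.26 and 0.73 in WT cells, beside 1.14 and 1.33 for the 10 genes and -0.05 and -0.02 for all genes tested. The medians of the 10 genes were the same with genes at 0 reads placed at the floor of 3 reads.

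Genes around Gpx4 included 7 tested genes of ferroptosis and membrane lipids, of which 6 rose and 0 fell. For this list and those that follow, the shares of all genes were 32.1% rising and 32.5% falling. Acsl4, which prepares polyunsaturated fatty acids for membranes, rose by 1.37 ± 0.13 and Acsl3, which prepares monounsaturated ones, by 3.09 ± 0.19 (adjusted p = 8.93e-06 and 5.17e-07). Of 8 genes of selenoprotein synthesis 3 rose and 3 fell, among them Sephs1 at 1.39 ± 0.13 and Trnau1ap, which binds the selenocysteine tRNA, at 1.06 ± 0.13. Only 2 of 7 other glutathione peroxidases were tested. Gpx1, the cytosolic peroxidase, rose by 0.73 ± 0.12 (adjusted p = 5.06e-04), to 350 and 275 CPM in stimulated Yap KO and WT cells against 216 and 161 CPM in unstimulated ones, and Gpx7, of the endoplasmic reticulum and named after its values were seen, fell to 2 and 0 reads in stimulated Yap KO and WT cells, against 16 and 19 reads in unstimulated ones (adjusted p = 0.0191). Of 7 glutathione transport genes 2 rose and 3 fell, with Slc25a39, the mitochondrial glutathione carrier, at 1.57 ± 0.13 and Slc25a10, the dicarboxylate carrier, at 0.97 ± 0.20.

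**Figure D3:**
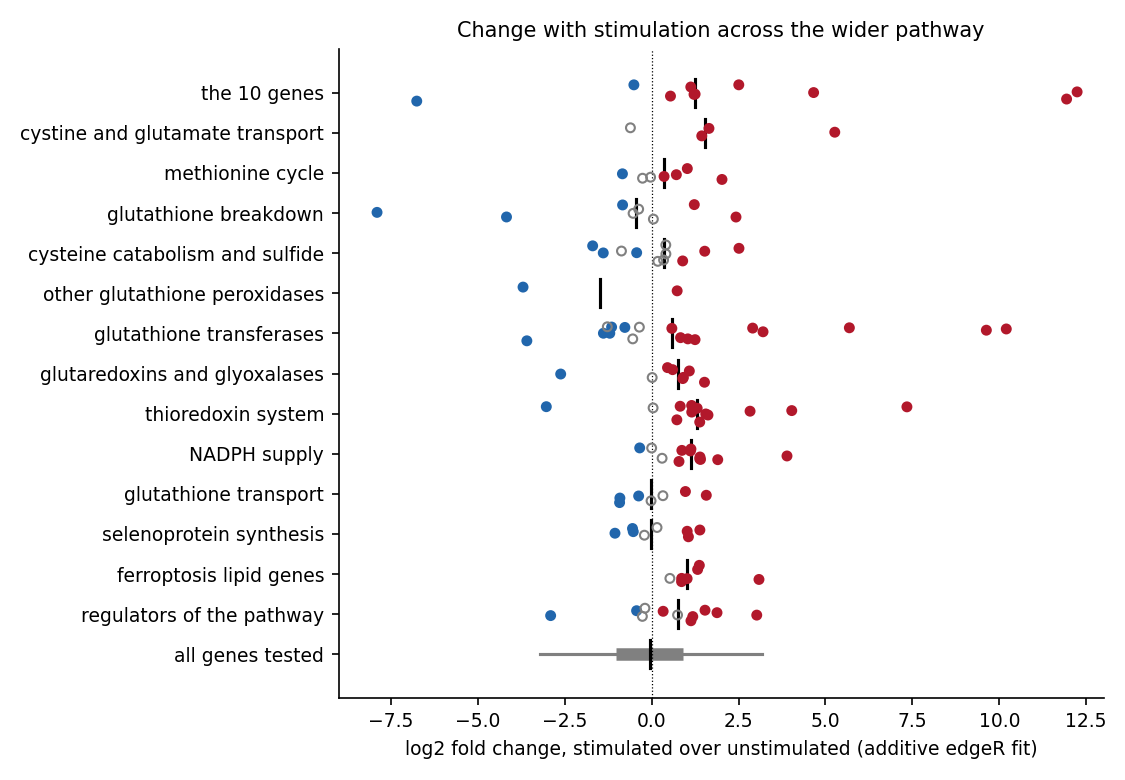
Log2 fold change of stimulated over unstimulated cells from the additive edgeR fit, 1 point per tested gene, for the 10 genes and the lists of related genes; red points rose and blue points fell at an adjusted p under 0.05, open points did not pass, and the black bar is the list's median. The bottom row gives the median, the middle 50% and the 5th to 95th percentile of all 15394 genes. Fitted values of genes with 0 reads in a state, such as Chac1, depend on the prior count.

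The second comparison set Yap KO against WT cells. None of the 10 genes was called by edgeR (adjusted p-values from 0.652 to 0.982) or DESeq2, beside 1.18% of all genes called by edgeR, 0.695% higher and 0.487% lower in Yap KO. At an unadjusted edgeR p under 0.05 there were 0 of 10 genes, beside 10.04% of all genes. By size, none differed 2-fold or more in stimulated and also, with the same sign, in unstimulated cells, with intervals excluding no difference, beside 1.84% of all genes. This compares 1 cell source per genotype, and a p that misses the threshold does not show that the levels are equal. The largest fitted difference among the 8 genes averaging 10 CPM or more was that of Gss, at 0.25 ± 0.15 (log2, Yap KO over WT, adjusted p = 0.652).

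Counting intervals show how closely each gene was measured. Chac1 had a stimulated log2 ratio of Yap KO over WT of 0.07 (95% interval -0.11 to 0.24). For Cth the stimulated ratio was 0.13 (0.04 to 0.22). Ggt1 had 0.14 (0.04 to 0.23) in unstimulated cells, and in stimulated cells its 13 reads per library left a range from -1.15 to 1.31. The stimulated ratios of the 8 genes averaging 10 CPM or more lay between -0.13 for Gpx4 and 0.17 for Gss, and the median size over the 9188 genes at that level was 0.16.

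Gss was higher in Yap KO cells in both states, at 0.17 (0.05 to 0.30) stimulated and 0.33 (0.15 to 0.51) unstimulated. Gsr had -0.06 (-0.14 to 0.02) stimulated and 0.20 (0.09 to 0.30) unstimulated, and Gpx4 had -0.13 (-0.19 to -0.06) and 0.09 (-0.00 to 0.17). Intervals that exclude 0 are frequent at this depth: 3 of 10 genes in stimulated cells, beside 47.1% of all genes, and 5 of 10 in unstimulated cells, beside 49.5%. Of the 3, Cth and Gss were higher in Yap KO, as were 23.9% of all genes, and Gpx4 lower, as were 23.1%. Of the 5, Gclc, Gss, Gsr and Ggt1 were higher in Yap KO, as were 29.1% of all genes, and Slc7a11 lower, as were 20.3%. Slc7a11 had 0 reads in Yap KO and 5 in WT unstimulated cells, and Cbs had 2 and 8, counts too small to place either gene.

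**Figure D4:**
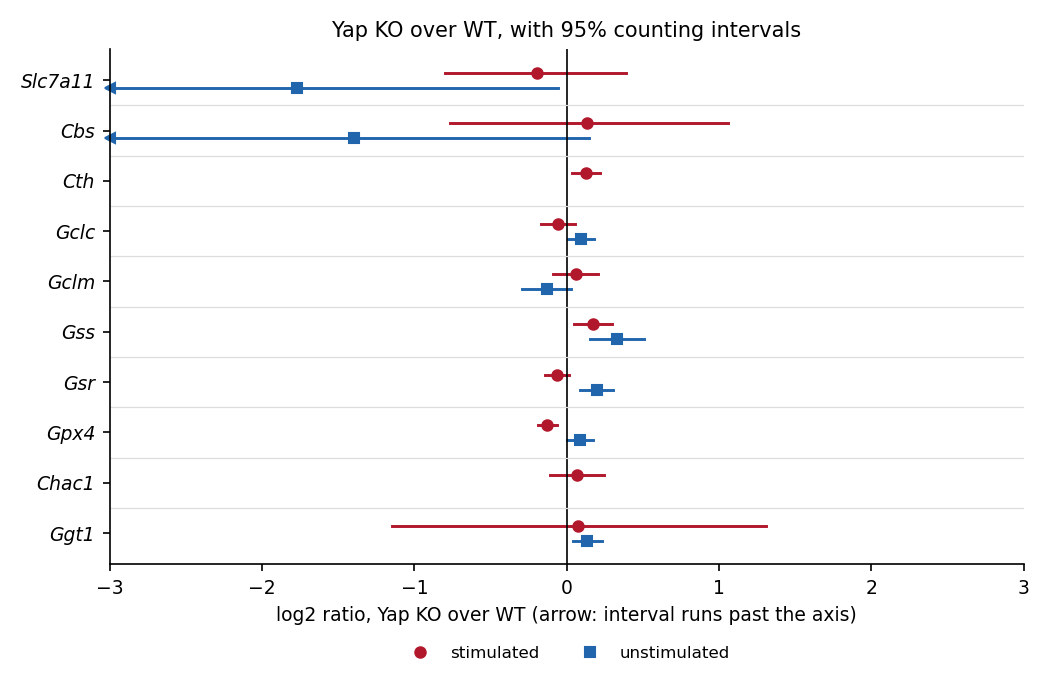
Log2 ratio of Yap KO over WT for each gene in stimulated (above) and unstimulated cells (below), with exact 95% counting intervals; arrows mark intervals that run past the axis, and unstimulated Chac1 and Cth are left out because both genotypes had at most 1 read. Intervals of Gclc, Gclm, Gss, Gsr and Gpx4 lie between -0.29 and 0.51, and those of Slc7a11 and Cbs are wide.

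The size of the stimulation response was also compared between genotypes. None of the 10 genes differed by 4-fold or by 2-fold with an interval excluding no difference, beside 2.52% and 7.73% of all genes. Signs of the genotype ratio that differ between the states, as in 6 of the 10 genes, were found for 42.5% of all genes. The 6 were Cbs, Cth, Gclc, Gclm, Gsr and Gpx4, with Cth at 0 and 1 reads in unstimulated Yap KO and WT cells. The log2 response of Yap KO minus that of WT cells was -0.26 (-0.39 to -0.13) for Gsr, -0.21 (-0.32 to -0.11) for Gpx4 and -0.15 (-0.29 to -0.02) for Gclc. These intervals hold counting error only, and 42.0% of all genes had one that excluded 0. The spread of the difference over cultures was not measured.

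Of 27 listed glutathione transferases, which attach glutathione to other molecules, 17 were tested, and with stimulation 9 rose and 5 fell. Over all genes, 32.1% rose and 32.5% fell. Mgst2, a microsomal transferase, changed by -3.59 ± 0.20 and Gstp3 by -1.39 ± 0.19 on the log2 scale. Over all the lists together, 1 of 115 tested genes was called for genotype, a share near the 1.18% of all genes. Gsto1, an omega-class glutathione transferase, had 52.0 CPM in Yap KO and 29.7 CPM in WT stimulated cells, and 31.3 CPM in Yap KO and 11.4 CPM in WT unstimulated cells. It was higher in Yap KO in both states, with log2 ratios of 0.80 in stimulated and 1.45 in unstimulated cells. The additive edgeR fit over both states gave 1.12 (adjusted p = 0.0232).

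Other genes with a like pattern over the 4 libraries were sought among 9188 genes averaging 10 CPM or more, by Euclidean distance over the 4 log2 ratios (stimulation in each genotype and genotype in each state). Chac1 had Cdkn1a, a cell cycle inhibitor, Zbtb32, a transcriptional repressor, and Ccnb1, a mitotic cyclin, as its nearest genes, at distances of 0.62, 0.89 and 0.98. Those of Cth were Crabp2, which binds retinoic acid, Bcat1, a branched-chain aminotransferase, and Asns, asparagine synthetase, at 1.44, 1.60 and 1.77. In unstimulated Yap KO and WT cells Chac1 had 0 and 0 reads and Cth 0 and 1. The ratios of these 2 genes therefore depend on the prior count of 2, and so do their distances and nearest genes. Ggt1 was nearest to Hsd11b1, which activates glucocorticoids, Sema4a, a semaphorin, and Gm11346, at 0.75, 0.91 and 0.91. Hsd11b1 had 2.33 and 1.62 CPM in stimulated Yap KO and WT cells, against 172 and 131 CPM in unstimulated ones. Genes with moderate changes had much closer neighbours, such as Map3k12 for Gclm at 0.01, Zfp639 for Gpx4 at 0.02, Hadhb for Gclc at 0.03, Cops4 for Gsr at 0.05 and Xpo5 for Gss at 0.06. The distances rest on 4 libraries and carry no test.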

How the data were processed

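RNA-seq was run on a MiSeq, per the labels. The authors deposited raw counts of reads per Ensembl gene, 1 table per library, on mm9 per the submitters' processing notes. No aligner, annotation or strand setting is stated in the labels. The 5 summary rows without a gene were left out of library sizes, and 35.6 to 39.7% of reads lay in genes. From the counts, genes passing edgeR's filterByExpr were scaled by TMM (edgeR 4.0.16, R 4.3.3) and fitted with state and genotype as additive terms, by the quasi-likelihood test with Benjamini-Hochberg adjustment over 15394 genes, with 1 residual degree of freedom per gene. DESeq2 1.42.0, other scalings, filters and prior counts, and leaving out each library were alternatives. The fit was also run on simulated counts with a fixed spread and the same response in both genotypes. Since that spread was assumed, the simulation cannot show how well the p-values hold for these libraries. Ratios have exact 95% binomial counting intervals and a floor of 3 reads. These cover counting error only, since PCR reads are not independent molecules. Coordinates and exon lengths are GENCODE M21 on GRCm38, matched by identifier and not converted from mm9. The members and lists were chosen with earlier results of these data known. Besides the 10 genes and Yap1, the text names, for each effect, the 2 genes of each list with the largest absolute log2 fold change among those called and averaging 10 CPM or more, and the 3 nearest genes by pattern or some of them; other genes are marked as chosen after their values were seen.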

Additional observations from a re-analysis of the deposited data

Results flagged for a closer look

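For 6 of the 10 genes the ratio of Yap KO over WT pointed in opposite directions in stimulated and unstimulated cells, which 42.5% of all tested genes also did. The log2 response of Yap KO minus that of WT cells was 1.53 for Cbs, -0.15 for Gclc, 0.19 for Gclm, -0.26 for Gsr and -0.21 for Gpx4. With 1 library per group, these differences were not tested against the spread between cultures. Cbs rests on 2 and 8 reads in unstimulated Yap KO and WT cells, and the remaining gene, Cth, on 0 and 1, for which no genotype ratio is given.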

How the results depend on the processing

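All 98 alternative values of the stimulation change of the 10 genes kept their direction, and the calls lost were those of Cbs and Gclm given above. Leaving out single libraries, with the state term only, gave 7646 to 8054 calls over all genes and 8 to 9 of the 10 genes. Genotype calls over all genes numbered 671 with no filter (410 higher, 261 lower) and 83 at 10 CPM or more (47 higher, 36 lower). Genes 1.5-fold apart by genotype in both states numbered 553, against 283 at 2-fold. Response differences numbered 201 with a prior count of 5 and 1190 at 2-fold, against 388 at 4-fold. The genotype value of Gpx4 was 0.000964 with no filter and that of Chac1 -0.045 with DESeq2, both of opposite sign to the reported values of -0.02 and 0.07, and neither passed a threshold; the cause was not tested. In the 150-base window, 1 gene held the ATF4 element and 1 the antioxidant core, against 2 each in the whole window, since the matches of Chac1 and Gclm lie outside it. No paired analysis was possible because all 4 libraries carry the number 1, so that a block by number has 1 level. The genotype term does compare the states within each genotype's own 2 libraries, and without it 9233 genes were called. Genotype was not refitted without single libraries, since 3 libraries leave no residual degrees of freedom. With 1 library per group, depth limits what can be said of Slc7a11, Cbs and, in unstimulated cells, Cth and Chac1.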

Other observations

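Ggt1 and Ggt5 are neighbours on chromosome 10 (75561604 to 75586200 and 75589340 to 75617200, GRCm38) of the theta-class glutathione transferases Gstt3, Gstt1, Gstt4 and Gstt2, which begin at 75774115, 75783813, 75814943 and 75831114. This group was picked after its values were seen. Both transpeptidases fell with stimulation, while the transferases were higher in stimulated cells. Gstt1 had 71 and 205 reads in stimulated Yap KO and WT cells and 0 reads in both unstimulated libraries. Gstt3 had 176 and 191 reads in stimulated Yap KO and WT cells, against 9 and 0 reads in unstimulated ones. Gstt4 had 87 and 90 reads in stimulated Yap KO and WT cells and 0 reads in both unstimulated libraries. Gstt2 had 1231 and 1403 reads in stimulated Yap KO and WT cells, against 675 and 684 reads in unstimulated Yap KO and WT cells.

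Within stimulated cells, Gstt1 had a log2 ratio of Yap KO over WT of -1.43 (95% counting interval -1.86 to -1.05). Srxn1, sulfiredoxin, which repairs over-oxidised peroxiredoxins, had 122 and 36 reads in stimulated Yap KO and WT cells, a ratio of 1.79 (1.30 to 2.42), and 1 and 0 reads in unstimulated Yap KO and WT cells. Both were chosen after their values were seen. The additive edgeR fit called neither Gstt1 nor Srxn1 for genotype (adjusted p = 0.328 and 0.262), and with 1 library per group the spread between cultures was not measured.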
